A study of Mus musculus with 4 samples.

Results

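The transcripts of motor proteins were followed here through 2 lists of N6-methyladenosine (m6A) peaks from mouse hearts. Members were the rows of either list whose gene name starts with Kif, Klc or Myo and a digit, or with Dync or Dnah. The rule took 120 of the 21179 peaks in the Wtap-CKO list, in 44 genes, and 113 of the 20766 peaks in the control list, in 47 genes. Together these were 233 peaks of 51 genes, among 41945 peaks of 12182 genes. Of the 51, 50 are genes of kinesin, dynein or myosin chains, and Dnah2os is an antisense transcript of Dnah2 that the name rule also takes.

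Kinesins and dyneins are motors that walk along microtubules, most kinesins towards the plus end and cytoplasmic dynein towards the minus end, and they carry vesicles, mitochondria and messenger RNA. Some kinesins instead build the mitotic spindle or shorten microtubules. Unconventional myosins work on actin filaments, where they move or tether cargo and membranes, and some have lost their motor activity. m6A is placed on RNA by a methyltransferase complex of METTL3 and METTL14 that needs WTAP as a regulatory subunit.

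In MeRIP-seq, fragmented RNA is pulled down with an antibody against m6A and sequenced beside the RNA that went in. Wtap-CKO hearts, pooled from 8 mice, and control hearts (Wtapflox/flox), pooled from 7 mice, were taken at 4 days of age, and an immunoprecipitation (IP) library and an input library were made for each. Control mice carried the floxed Wtap allele as well. The sources used here do not name the Cre driver of Wtap-CKO, and so not the cell type that lost Wtap. There were no replicates, so genotypes could not be tested against each other, and the 95% intervals below (Clopper-Pearson) cover counting error only. Library depth is unknown because the lists carry no counts. The fold of a peak is the IP over input enrichment that the authors' caller gave it, and the log10 q is the logarithm of its adjusted p, so that a more negative value marks a stronger peak. Both rank peaks within 1 list, and values of the 2 lists are only set side by side, since each list was called on its own. Positions are those of mouse build GRCm39, counted from 1. Whether a peak lay in coding sequence or in a UTR was not analysed here.

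Wtap itself had 4 peaks in the Wtap-CKO list and 3 in the control list, which do not check the deletion. All 10 cardiomyocyte markers, such as Myh6 and Tnnt2, had peaks in both lists. A peak has a counterpart when the other list holds a same-strand peak that shares at least 1 exonic base with it, and 24.5% of all Wtap-CKO and 23.9% of all control peaks had none. Marker peaks without a counterpart numbered 0 of 29 in Wtap-CKO hearts and 22 of 52 in control hearts for the cardiomyocyte markers, 17 of the 22 in Ttn. The fibroblast markers had 9 of 21 in Wtap-CKO hearts and 1 of 13 in control hearts, and the endothelial markers had 7 of 18 in Wtap-CKO and 1 of 13 in control hearts. For smooth muscle and pericyte markers these were 6 of 25 in Wtap-CKO and 2 of 22 in control hearts. Cycling cell markers had 1 of 15 in Wtap-CKO and 1 of 17 in control hearts. Their part in the results below was not tested, and in whole hearts fewer cells of a type, less RNA per cell and less methylation cannot be told apart.

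The first question was whether peaks of motor genes lay at the same places in both genotypes. Of the Wtap-CKO motor peaks 92 had one and 28 did not (23.3%, interval 16.1 to 31.9%), where 24.5% of all peaks in that list had none. Of the control motor peaks 90 had one and 23 did not (20.4%, interval 13.4 to 29.0%), where 23.9% of all peaks had none. Both shares lay near the share over all genes. Peaks without a counterpart were the weaker ones. Their median log10 q was -3.27 in the Wtap-CKO list and -2.64 in the control list, against -11.4 (Wtap-CKO) and -17.2 (control) for motor peaks with a counterpart. The same held over all genes. There the medians were -3.20 without and -11.9 with a counterpart in the Wtap-CKO list, and -3.73 and -13.3 in the control list.

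Strong peaks, with q at or under 1e-10, were 51 of the 120 motor peaks in the Wtap-CKO list and 59 of 113 in the control list, where 43.2% (Wtap-CKO) and 48.0% (control) of all peaks were strong. At an overlap of 1 base, few strong motor peaks lacked a counterpart. In Wtap-CKO hearts 2 of 51 strong motor peaks had no counterpart (3.92%, interval 0.478 to 13.5%), and 4.04% of all strong peaks of that list had none. In control hearts 2 of 59 had none (3.39%, interval 0.413 to 11.7%), where 8.72% of all strong peaks had none, a value inside the interval. These counts depended on the limits: with an overlap of 50% of both peaks they were 5 of 51 in Wtap-CKO and 8 of 59 in control hearts, and with both lists held to folds of 4 or more they were 1 of 44 in Wtap-CKO hearts and 8 of 54 in control hearts. The shares over all strong peaks at these other limits were not computed. Whether these counts differ from those of all genes is therefore not known. At the overlap of 1 base, the 2 in Wtap-CKO hearts belonged to Kif5b and Klc1, a heavy and a light chain of kinesin-1, and the 2 in control hearts to Kif3b and Myo18b. Among the weaker peaks, 26 of 69 in the Wtap-CKO list (37.7%) and 21 of 54 in the control list (38.9%) had no counterpart, where the shares over all weaker peaks were 40.0% in the Wtap-CKO list and 38.0% in the control list.

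**Figure D1:**
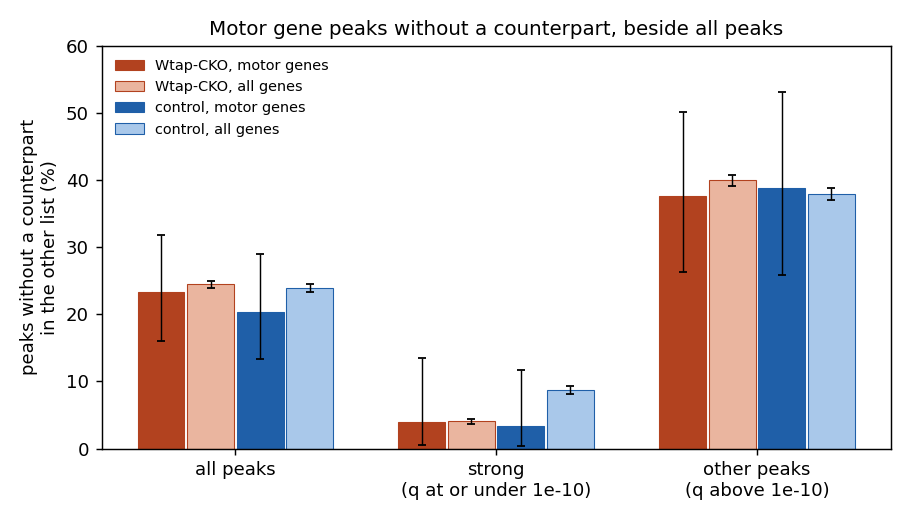
Bars give the percentage of peaks with no counterpart in the other list, for motor genes and for all genes in Wtap-CKO and control hearts, over all peaks, strong peaks and the other peaks, with exact 95% intervals that cover counting error only. The intervals of the motor genes hold the share over all genes in each of the 6 pairs.

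By gene, 40 of the 51 motor genes (78.4%) had peaks in both lists, where 77.6% of all genes with a peak did. Peaks in the Wtap-CKO list only were seen for 4 genes (7.84%, interval 2.18 to 18.9%), Kif1a, Kif5a, Kif5b and Myo19, where 11.9% of all genes were of this kind. Peaks in the control list only were seen for 7 genes (13.7%, interval 5.70 to 26.3%), among them Dync2i2, Kif22, Kif24, Kif6, Myo5b and Myo5c, where 10.5% of all genes were. Each of these 11 genes had 1 or 2 peaks, and Kif5b was the only one with a strong peak. The mean was 2.73 peaks per motor gene with a peak in Wtap-CKO hearts (1.94 over all genes) and 2.40 in control hearts (1.93 over all genes). The median was 2 peaks in each of these sets.

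**Figure D2:**
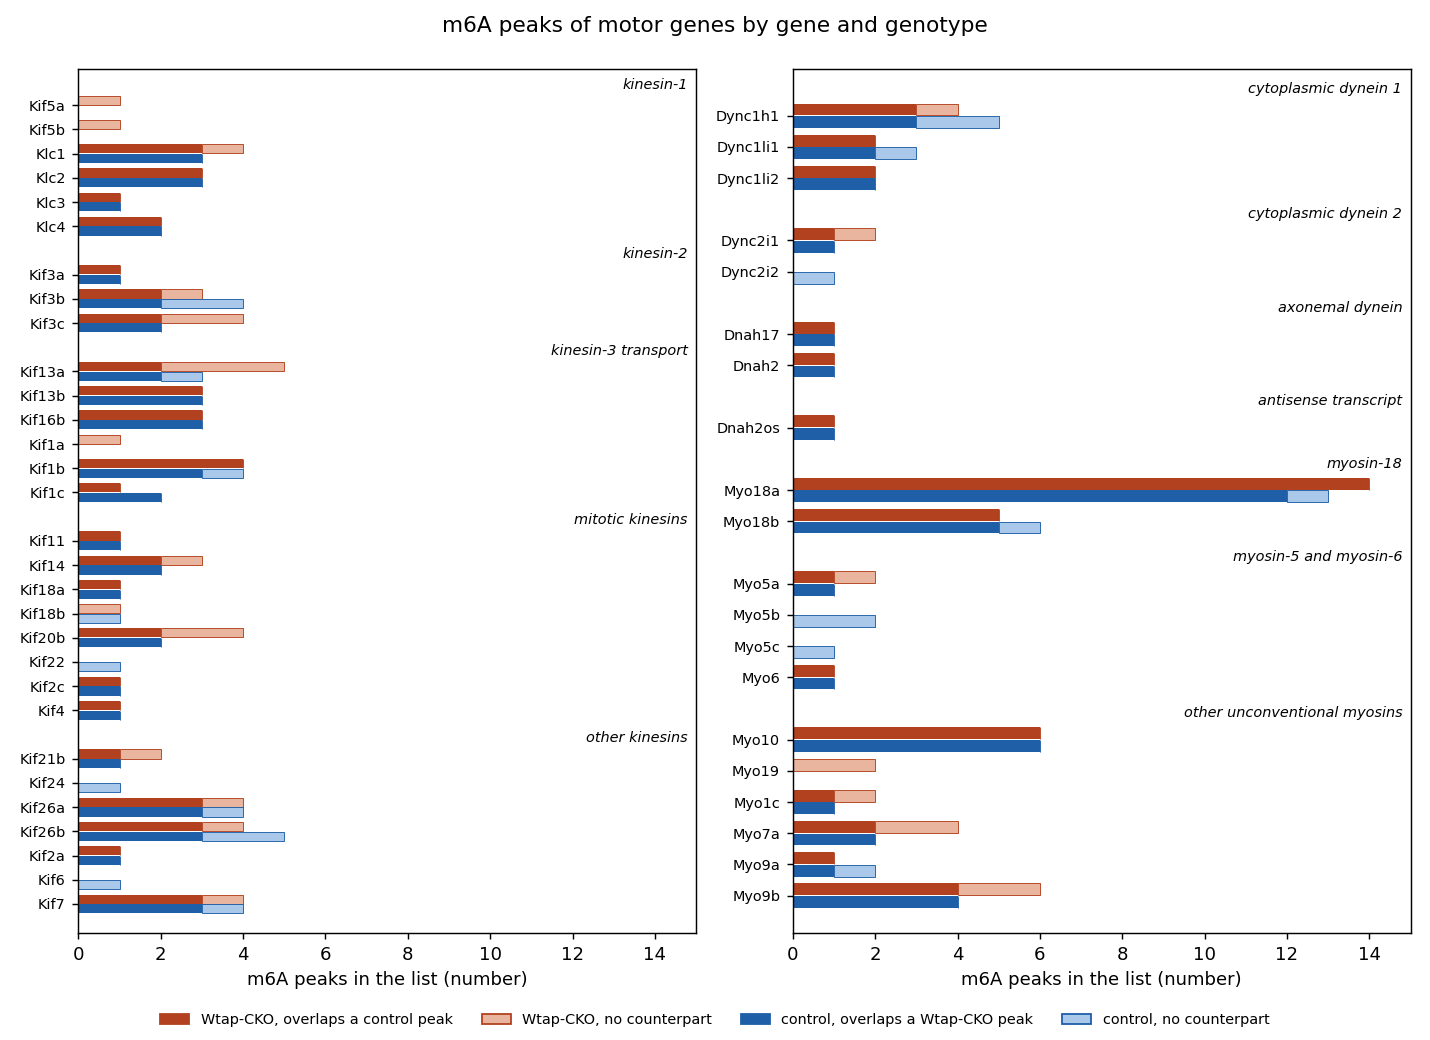
Bars give the number of m6A peaks of 50 of the 51 motor genes in the Wtap-CKO list (upper bar) and the control list (lower bar), grouped by role, with the pale part for peaks that have no counterpart. Myo18a stands out with 14 peaks in Wtap-CKO and 13 in control hearts, and most single-list genes have 1 peak.

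Kinesin-1 is the main plus-end motor for mitochondria and vesicles, with heavy chains of the Kif5 genes and light chains (Klc) that bind cargo. Its 6 genes had 12 peaks in the Wtap-CKO list, 3 of them without a counterpart, and 9 in the control list, each with a counterpart. Over all genes, 24.5% of Wtap-CKO and 23.9% of control peaks had none, and counts this small were not tested. Kif5b, the widely expressed heavy chain, had 1 peak in Wtap-CKO hearts (chromosome 18, 6241223 to 6241493, minus strand) with a fold of 5.19 and a log10 q of -10.1, and no peak in the control list. This peak lies at the limit for strong peaks. Kif5a, the heavy chain known from neurons, also had a peak in Wtap-CKO hearts only, with a fold of 12.2 and a log10 q of -2.13.

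Klc1, a light chain, had 4 peaks in Wtap-CKO hearts and 3 in control hearts. Its peak over 4 exonic blocks (chromosome 12, 111754203 to 111760781, plus strand) had the same ends in both lists, with folds of 3.24 in Wtap-CKO and 3.28 in control hearts and log10 q of -35.5 (Wtap-CKO) and -39.7 (control). The additional Wtap-CKO peak (111761962 to 111766837, 2 blocks) started 1180 bases past that peak on the genome and had a fold of 3.26 and a log10 q of -15.8. The light chains Klc2 and Klc4 had the same number of peaks in both lists. Klc2 had 3 in each, with folds of 4.57, 4.82 and 12.2 in Wtap-CKO hearts and 4.01, 8.59 and 6.22 at the counterparts in control hearts, and the last of these pairs overlaps Gm10817 on the other strand. Klc4 had 2 in each, with folds of 10.2 and 19.7 in Wtap-CKO hearts and 4.53 and 7.28 in control hearts.

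Klc3, a light chain known from the testis, had the largest fold of the motor peaks in both lists. Its 4-block peak (chromosome 7, 19128511 to 19129813 in Wtap-CKO and 19128630 to 19129843 in control hearts, minus strand) had a log10 q of -42.2 in Wtap-CKO and -48.5 in control hearts. The folds, 149 in Wtap-CKO and 49.7 in control hearts, cannot be given to Klc3 alone. A peak of Ercc2, a DNA repair helicase gene on the other strand, shares 567 bases with it in the Wtap-CKO list and 476 in the control list, with folds of 134 (Wtap-CKO) and 37.4 (control). Reads of the 2 genes cannot be told apart there. In all, 10 of the 120 Wtap-CKO and 9 of the 113 control motor peaks overlap a peak called for an opposite-strand gene in the same list, where 7.64% (Wtap-CKO) and 7.74% (control) of all peaks do.

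Kinesin-2 carries cargo along the axonemes of cilia and in the cytoplasm. Kif3a, which pairs with Kif3b or Kif3c, had 1 peak in each list, with a fold of 7.50 and a log10 q of -10.9 in Wtap-CKO and of 4.67 and -10.1 in control hearts. Kif3b had 3 peaks in Wtap-CKO and 4 in control hearts, and its most enriched region (chromosome 2, 153158944 to 153162253 in Wtap-CKO hearts, plus strand) had folds of 23.1 in Wtap-CKO and 27.3 in control hearts and log10 q of -47.9 (Wtap-CKO) and -15.7 (control). Further downstream the lists differed. Wtap-CKO hearts had a peak at 153172943 to 153173122 (log10 q -5.63), and control hearts had peaks at 153172433 to 153172583 (log10 q -2.35) and 153174561 to 153174980 (fold 4.22, log10 q -10.1). The last of these lay 1438 bases from the nearest Wtap-CKO peak. Kif3c had 4 peaks in Wtap-CKO and 2 in control hearts, none strong, with folds between 2.63 and 20.6 in Wtap-CKO and of 27.3 and 5.21 in control hearts. Its 2 control peaks met the 2 inner Wtap-CKO peaks.

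The kinesin-3 genes encode fast transporters of vesicles and endosomes and held the motor peak with the smallest p. Kif1c, a vesicle motor, had 1 peak of 1977 exonic bases in Wtap-CKO hearts (chromosome 11, 70615651 to 70620096, plus strand) with a fold of 10.4. Control hearts had 2 peaks over the same stretch, of 240 bases (fold 3.20) and 1648 bases (fold 6.82), so 1888 bases were covered in both. The log10 q of the large peak was listed as minus infinity in both lists.

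Kif1b, which carries mitochondria and synaptic vesicle precursors, had 4 peaks in each list on chromosome 4, and all 4 Wtap-CKO peaks met 3 of the control peaks. The Wtap-CKO peak at 149320229 to 149320768 (minus strand) had a fold of 4.34 and a log10 q of -28.4, and the control peak at 149320049 to 149320798 had 13.8 and -169. Next to it, 2 Wtap-CKO peaks with folds of 2.63 and 2.22 and log10 q of -6.88 and -3.17 lay over the control peak at 149321368 to 149322088 (fold 15.1, log10 q -97.5). The third pair had a fold of 7.38 and a log10 q of -37.3 in Wtap-CKO and of 16.7 and -112 in control hearts. At each of the 3 places the Wtap-CKO peaks were narrower and were listed with smaller folds and larger q. Kif1b peaks covered 1203 bases in Wtap-CKO and 2073 bases in control hearts.

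Kif13a, a transporter of endosomal cargo, showed a like pair on chromosome 13, with a fold of 6.39 and a log10 q of -58.4 in Wtap-CKO hearts and of 12.2 and -193 in control hearts. Its other pair had the same ends in both lists and ran the opposite way. There the fold was 7.01 and the log10 q -21.0 in Wtap-CKO, and 5.47 and -9.89 in control hearts. Kif13a also had 3 Wtap-CKO peaks without a counterpart, the most of any motor gene, with log10 q of -2.19, -6.47 and -5.80. Kif16b, an early endosome motor, had 3 pairs of peaks, and the control peak was listed with the smaller q in each, with log10 q of -4.86, -8.81 and -30.9 in Wtap-CKO and -48.8, -21.3 and -36.3 in control hearts. Kif13b, a vesicle and polarity motor, had 3 peaks in each list, paired one to one. Their log10 q were -4.99, -5.92 and -2.80 in Wtap-CKO and -18.8, -3.89 and -4.94 in control hearts. Kif1a, an axonal transporter, had 1 peak of 91 bases in Wtap-CKO hearts only (fold 3.59, log10 q -1.97). The kinesin-3 genes together had 6 strong peaks of 17 in Wtap-CKO and 10 of 15 in control hearts, where strong peaks were 43.2% of the whole Wtap-CKO list and 48.0% of the whole control list.

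**Figure D3:**
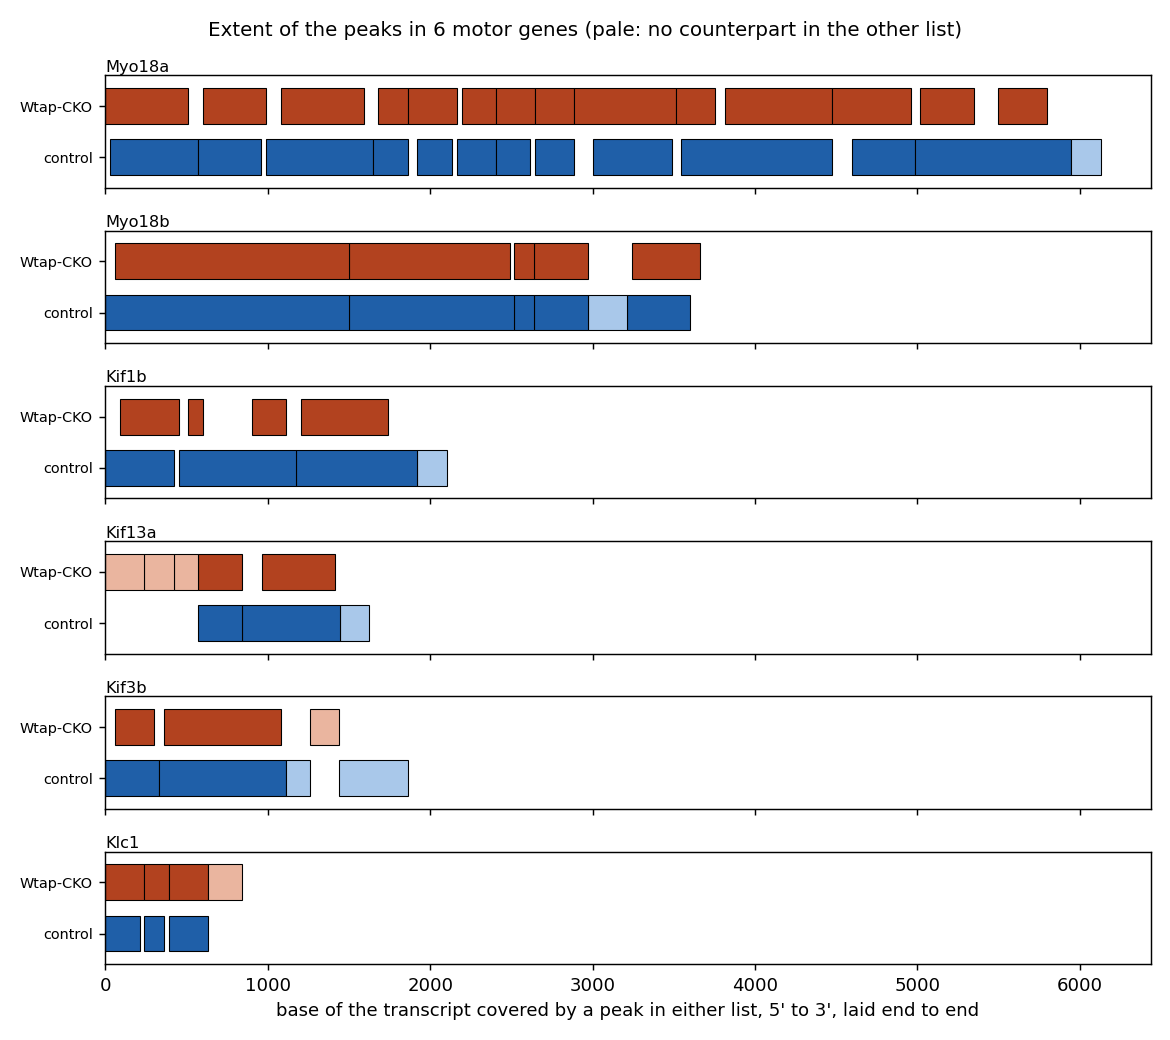
Bars show the peaks of 6 motor genes in Wtap-CKO (upper row) and control hearts (lower row) along the bases covered by a peak in either list, in bases from 5' to 3' with introns and uncovered bases left out, and pale bars have no counterpart. Most bars of one row sit over bars of the other, and Kif1b bars are shorter in the Wtap-CKO row. Pale bars stand in the Wtap-CKO row for Kif13a (3 bars), Klc1 and Kif3b. In the control row they stand for Myo18a, Myo18b, Kif1b, Kif13a and Kif3b.

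Kinesins of mitosis and cytokinesis are used by dividing cells, which are still found in the heart soon after birth. Their 8 genes had 12 peaks in Wtap-CKO and 10 in control hearts, of which 1 was strong in Wtap-CKO and 5 in control hearts, beside the same shares of 43.2% (Wtap-CKO) and 48.0% (control) over all peaks. Kif20b, which acts in cytokinesis, had 4 peaks in Wtap-CKO and 2 in control hearts, and its most upstream peak (chromosome 19, 34927150 to 34927420 in Wtap-CKO hearts, plus strand) had folds of 42.2 in Wtap-CKO and 15.1 in control hearts and log10 q of -11.8 (Wtap-CKO) and -29.8 (control). Here the larger fold stood with the larger q. Kif18a, which aligns chromosomes, had 1 peak in each list, with a fold of 9.69 and a log10 q of -5.41 in Wtap-CKO and of 21.7 and -15.5 in control hearts. Kif2c, a microtubule depolymerase of centromeres, had a log10 q of -5.16 in Wtap-CKO and -21.5 in control hearts. Kif14, another cytokinesis kinesin, had a pair with a fold of 37.5 and a log10 q of -9.11 in Wtap-CKO and of 13.6 and -12.6 in control hearts. Its other pair ran the opposite way in fold, with 5.39 and a log10 q of -2.75 in Wtap-CKO and 26.5 and -6.28 in control hearts, and its remaining Wtap-CKO peak (fold 14.1, log10 q -3.15) had no counterpart. Kif18b, which trims the astral microtubules, had 1 peak in each list, with a fold of 23.4 in Wtap-CKO and 9.62 in control hearts. They did not overlap and lay 7859 bases apart. Kif11, the motor that pushes spindle poles apart, and Kif4, a chromosome-bound kinesin, had 1 shared peak each, none strong. Kif22, another chromosome-bound kinesin, had 1 peak in control hearts only (fold 2.91, log10 q -2.68).

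Among the other kinesins, Kif26a and Kif26b are atypical members that bind microtubules. Kif26a had 3 strong shared peaks on chromosome 12. The widest was 1588 bases wide in Wtap-CKO hearts (fold 19.1, log10 q -91.7) and 1379 bases wide in control hearts (fold 13.6, log10 q -76.9). The folds of the other strong Kif26a pairs were 23.9 and 14.8 in Wtap-CKO and 21.5 and 10.4 in control hearts. Kif26b had 4 peaks in Wtap-CKO and 5 in control hearts, and its strong pair had a fold of 5.09 and a log10 q of -17.1 in Wtap-CKO and of 16.7 and -46.1 in control hearts. Kif7, the ciliary kinesin of hedgehog signalling, had 4 peaks in each list with 3 shared, none strong. Its folds ran between 3.40 and 15.9 in Wtap-CKO and between 5.61 and 27.3 in control hearts. Kif2a, a depolymerase, and Kif21b, which slows microtubule growth, had 1 shared peak each. Kif24, which acts at the centriole before a cilium forms, had 1 control peak (fold 20.9, log10 q -4.66), and Kif6 had 1 control peak (fold 16.8, log10 q -3.52). Neither peak was strong, and many control peaks had the same fold and p (57 for Kif24 and 88 for Kif6).

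Cytoplasmic dynein 1 is the main minus-end motor of the cell. Dync1h1, its heavy chain, had 4 peaks in Wtap-CKO and 5 in control hearts on chromosome 12, of which 3 in each list met. The most downstream pair (110633049 to 110633379 in Wtap-CKO and 110633019 to 110633379 in control hearts, plus strand) was the strongest, with a fold of 4.85 and a log10 q of -128 in Wtap-CKO and of 6.79 and -158 in control hearts. The 3 Dync1h1 peaks without a counterpart were weak, with a log10 q of -4.97 in Wtap-CKO hearts and of -2.64 and -5.98 in control hearts. The Wtap-CKO one overlaps a peak of Gm35558 on the other strand and cannot be told apart from it.

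The light intermediate chains Dync1li1 and Dync1li2 bind the adaptors that link dynein to cargo. Dync1li1 had 2 shared peaks (chromosome 9), the first with a fold of 11.6 and a log10 q of -28.3 in Wtap-CKO and of 5.86 and -14.0 in control hearts. At the second the order turned round, with a fold of 2.48 and a log10 q of -9.38 in Wtap-CKO and of 5.35 and -51.4 in control hearts. Dync1li2 had a strong pair of peaks (chromosome 8) with folds of 3.30 in Wtap-CKO and 2.99 in control hearts and log10 q of -51.7 (Wtap-CKO) and -47.8 (control). Its second pair overlaps the antisense gene K230015D01Rik in both lists.

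Dynein 2 runs inside cilia. Dync2i1, an intermediate chain, had 2 peaks in Wtap-CKO hearts with folds of 30.0 and 29.1, and the second met the 1 control peak (log10 q -2.63). Dync2i2, the other intermediate chain, had a control peak only (fold 2.75, log10 q -3.05). The axonemal heavy chains Dnah2 and Dnah17, known from motile cilia and sperm tails, had 1 shared peak each. The Dnah17 pair had folds of 3.38 in Wtap-CKO and 20.9 in control hearts and shares 26 bases with Pgs1 on the other strand in Wtap-CKO and 56 in control hearts. The Dnah2 pair and the peaks of the antisense transcript Dnah2os overlap each other, so their folds of 15.0 and 16.9 in Wtap-CKO and of 20.9 and 14.4 in control hearts cannot be told apart.

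The myosin-18 genes encode myosins with little or no motor activity of their own, and Myo18b is needed to build sarcomeres in striated muscle. They held 19 of the motor peaks in each list, 16 strong in Wtap-CKO and 15 in control hearts, where 43.2% (Wtap-CKO) and 48.0% (control) of all peaks were strong. Myo18a had 14 peaks in Wtap-CKO and 13 in control hearts on chromosome 11. Of all genes, 4 in the Wtap-CKO list had at least 14 peaks and 5 in the control list had at least 13. All 14 Wtap-CKO peaks met a control peak, and 4752 bases were covered in both, 90.9% of the Wtap-CKO and 84.1% of the control bases. At 2 places a pair of Wtap-CKO peaks met 1 control peak. At one of them the Wtap-CKO peaks had log10 q of -30.5 and -17.8, and the control peak (77750768 to 77756087) had -163. The neighbouring pair had a fold of 4.41 and a log10 q of -37.8 in Wtap-CKO and of 7.60 and -168 in control hearts. Other pairs ran the opposite way, such as that at 77668816 to 77669206, with a fold of 11.7 and a log10 q of -32.6 in Wtap-CKO and of 8.47 and -24.7 in control hearts. Of the 10 Myo18a pairs of 1 peak with 1 peak, 4 had the smaller q in Wtap-CKO and 6 in control hearts.

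Myo18b had 5 peaks in Wtap-CKO and 6 in control hearts on chromosome 5, and 98.2% of its Wtap-CKO bases were also covered in control hearts. The peak with most exonic bases, 1440 in Wtap-CKO and 1499 in control hearts (113021760 to 113025857 in Wtap-CKO hearts, minus strand), had folds of 12.5 in Wtap-CKO and 10.4 in control hearts and log10 q of -189 (Wtap-CKO) and -166 (control). A peak over 3 blocks at 112871676 to 112908198 had the same ends in both lists, with folds of 5.48 in Wtap-CKO and 4.00 in control hearts. The strong control peak without a counterpart (112840279 to 112840519) had a fold of 2.25 and a log10 q of -24.1 and lay 119 bases from the end of a Wtap-CKO peak. The peak over 8 blocks in Wtap-CKO and 9 in control hearts overlaps 1700095B10Rik on the other strand.

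The cargo myosins were thinly covered. Myo5a, which carries vesicles and organelles along actin, had a strong pair with a fold of 6.46 and a log10 q of -22.5 in Wtap-CKO and of 11.6 and -35.9 in control hearts. Myo5b and Myo5c, which act in membrane recycling and in secretory epithelia, had 2 peaks and 1 peak in control hearts only, with log10 q between -2.64 and -1.83. Myo6, the myosin that moves towards the minus end, had 1 shared peak with a log10 q of -4.97 in Wtap-CKO and -5.93 in control hearts.

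Myo10, a myosin of filopodia, had 6 peaks in each list on chromosome 15, paired one to one. In the order of their positions, the Myo10 folds were 4.88, 14.1, 11.5, 7.50, 3.49 and 14.8 in Wtap-CKO hearts. At the counterparts in control hearts they were 8.82, 4.61, 13.3, 4.41, 2.90 and 7.87. The ranges overlapped widely, while single pairs differed in both directions. The 3 strong pairs had log10 q of -25.5, -19.6 and -20.8 in Wtap-CKO and -15.7, -15.0 and -22.1 in control hearts. Myo9a and Myo9b carry a GTPase-activating domain beside their motor domain. The shared Myo9a peak (chromosome 9, 59831954 to 59832314 in Wtap-CKO and 59831925 to 59832584 in control hearts, plus strand) had a fold of 67.1 and a log10 q of -36.1 in Wtap-CKO and of 18.2 and -53.5 in control hearts. Myo9b had 6 peaks in Wtap-CKO and 4 in control hearts, and its most downstream pair had a fold of 6.99 and a log10 q of -100 in Wtap-CKO and of 15.4 and -164 in control hearts.

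Myo1c, which links membranes to actin, had a pair of peaks with folds of 30.0 in Wtap-CKO and 16.0 in control hearts and log10 q of -15.0 (Wtap-CKO) and -15.2 (control). Myo7a, known from the hair cells of the ear, had a pair of peaks with a fold of 14.1 and a log10 q of -52.9 in Wtap-CKO and of 8.56 and -18.7 in control hearts. Myo19, the myosin on the outer membrane of mitochondria, had 2 weak peaks in Wtap-CKO hearts only (folds 6.56 and 7.03, log10 q -2.81 and -2.02).

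**Figure D4:**
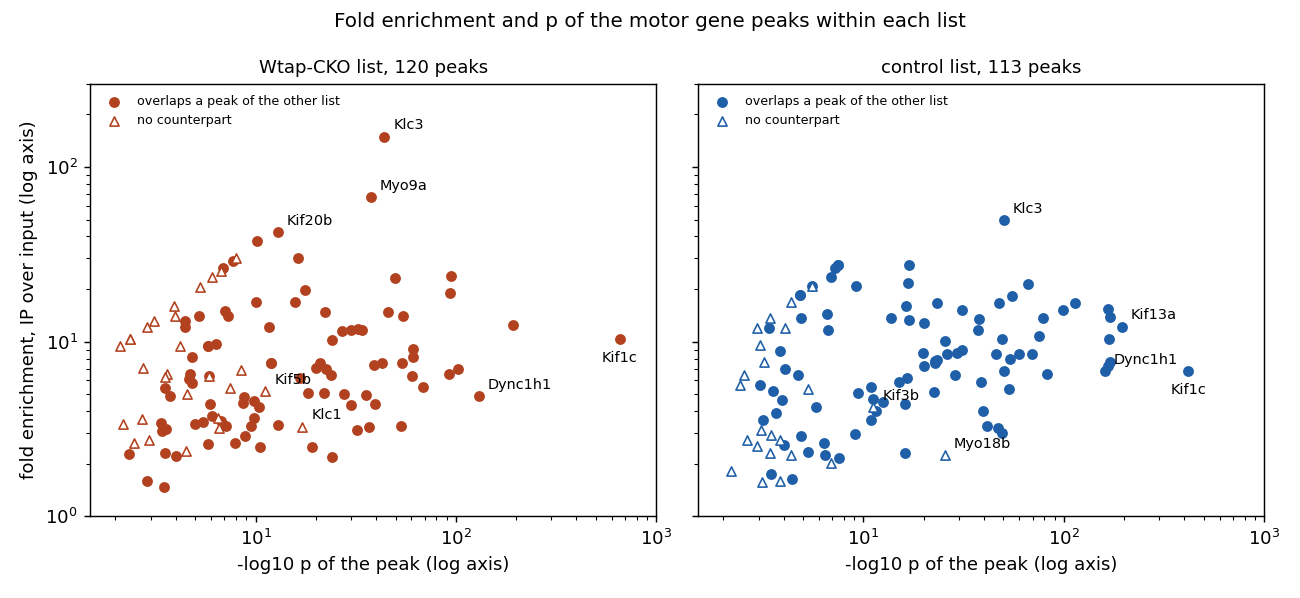
Each point is a peak of a motor gene in the Wtap-CKO list (left) or the control list (right), with -log10 p on the x axis and fold enrichment over input on the y axis, both log axes, and triangles have no counterpart. Klc3, whose peak overlaps Ercc2, has the largest fold in both lists (149 in Wtap-CKO, 49.7 in control), Kif1c has the smallest p, and nearly all triangles lie at the left.

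Across all motor genes, the level of the peaks within each list was close to that of all genes. The median fold was 6.55 for motor genes and 7.03 for all genes in the Wtap-CKO list, and 7.28 for motor genes and 7.22 for all genes in the control list. The median log10 q was -7.71 (all genes -7.69) in Wtap-CKO and -10.4 (all genes -9.17) in control hearts. The mean fold was 10.7 for motor genes (10.4 over all genes) in Wtap-CKO and 9.43 (9.66 over all genes) in control hearts. These motor means include the Klc3 folds of 149 in Wtap-CKO and 49.7 in control hearts, where Ercc2 overlaps. Motor peaks covered 40603 exonic bases in Wtap-CKO hearts and 40898 in control hearts. Both lists covered 31508 of these, 77.6% of the Wtap-CKO and 77.0% of the control bases, where the shares over all genes were 75.3% (Wtap-CKO) and 71.0% (control). The overlapping peaks formed 89 groups, of which 85 (95.5%) paired 1 peak with 1 peak, where 89.4% of all groups did.

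A larger share of motor peaks than of all peaks was broken over several exonic blocks. In Wtap-CKO hearts 43 of 120 (35.8%, interval 27.3 to 45.1%) had more than 1 block, where 23.3% of all peaks did, and in control hearts 40 of 113 (35.4%, interval 26.6 to 45.0%), where 21.2% did. Several peaks of 1 gene are not independent, and no test was made. Without Myo18a and Myo18b the shares were 32.7% in Wtap-CKO (interval 23.7 to 42.7%) and 31.9% in control hearts (interval 22.7 to 42.3%). Genes with such peaks numbered 23 of 44 (52.3%) in Wtap-CKO and 22 of 47 (46.8%) in control hearts, where 35.7% (Wtap-CKO) and 32.6% (control) of all genes with a peak had one. The mean of peaks per gene was also larger for motor genes, while the median was 2 for motor and for all genes. Genes with several peaks were 61.4% of motor genes in Wtap-CKO (51.8% over all genes) and 53.2% in control hearts (50.8% over all genes). Exon lengths of these genes were not analysed here.

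Peaks without a counterpart lay at varied distances from the other list's nearest peak of the same gene. These distances were taken on the genome with introns counted, and those of all genes were not computed. Of the 28 in Wtap-CKO hearts, 5 were in genes with no control peak, 5 lay within 200 bases of a control peak of the same gene on the genome and 14 lay more than 1000 bases away. Of the 23 in control hearts, 8 were in genes with no Wtap-CKO peak, 3 lay within 200 bases and 8 more than 1000 bases away. Among the near ones, a Kif26b pair missed each other by 29 bases and a Kif3c peak by 59 bases.

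Some genes with such names had no peak. A RefSeq table of an older build lists 89 protein-coding mouse genes under these names, of which 48 had a peak and 41 had none in the lists used here. The share of all protein-coding genes of that table with a peak was not counted here. Whether motor genes had peaks more or less often than other genes is therefore not known. Kinesins had peaks in 30 of 42 genes, myosins in 13 of 25, cytoplasmic dyneins in 3 of 7 and axonemal dyneins in 2 of 15. The dynein 2 chains Dync2i1 and Dync2i2 and the antisense transcript Dnah2os had peaks but matched no entry of that table, and stand outside these counts. The genes without a peak included the dynein 1 intermediate chains Dync1i1 and Dync1i2, the dynein 2 heavy chain Dync2h1, the neuronal kinesin-1 heavy chain Kif5c and the cytokinesis kinesins Kif20a and Kif23. Little RNA and little m6A cannot be told apart for a gene without a peak.

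Partners of the motors were counted from lists of genes outside the name rule. Of all genes with a peak, 11.9% had peaks in Wtap-CKO only and 10.5% in control only, and the partner lists below are short. The sizes of the partner lists also count genes with no peak, so they are not the same base as these shares. Of 23 genes of dynactin, the dynein cofactor, and of dynein adaptors, 16 had peaks in both lists, 2 in Wtap-CKO only (Dctn6 and Actr10), 1 in control only (Dctn4) and 4 in neither. Nin and Rab11fip3, both dynein activating adaptors, had most peaks, with 5 in Wtap-CKO and 6 in control hearts each. Of 11 dynein light and axonemal intermediate chains, 4 were in both lists, 1 in control only (Dnal1) and 6 in neither, and Dynll2 and Dynll1 had most peaks. Of 21 other kinesins and kinesin adaptors, 16 were in both lists and none in 1 list only. Mapk8ip3, a kinesin-1 scaffold, had 8 peaks in Wtap-CKO and 7 in control hearts, and Cenpe, the kinetochore kinesin, had 7 in Wtap-CKO and 3 in control hearts.

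Of 17 myosin partners, 9 were in both lists, 3 in Wtap-CKO only (Calm2, Optn and Tax1bp1) and none in control only. The single peaks of Calm2, Optn and Tax1bp1 were not strong, with log10 q of -7.29, -2.79 and -3.04. Myl6, a light chain, had most peaks with 4 in Wtap-CKO and 3 in control hearts. Of 17 symbols of axonemal dynein assembly factors, which hold 3 older names beside the current ones, 1 was in both lists (Dnaaf2), 2 in Wtap-CKO only (Dnaaf1 and Dnaaf5), 1 in control only (Odad1) and 13 in neither. Over these 5 partner lists, 0 of 54 strong peaks in Wtap-CKO and 3 of 54 in control hearts had no counterpart, where 4.04% (Wtap-CKO) and 8.72% (control) of all strong peaks had none. Kifbp, a kinesin binding protein, had a fold of 3.08 and a log10 q of -15.8, Trak1, the adaptor between kinesin-1 and mitochondria, had 3.84 and -33.9, and Rab11fip3 had 3.86 and -11.4.

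Some folds of weak peaks fell on steps. Among weak peaks with a fold between 3 and 10 and a q above 1e-05, 29.5% of 3435 in the Wtap-CKO list were whole multiples of 0.9375 and 33.5% of 3011 in the control list were whole multiples of 0.802, within 0.005. The median over the steps tried, between 0.5 and 1.5, was 0.466% in Wtap-CKO and 0.498% in control hearts. Of the weak motor peaks in that range of folds, 6 of 24 in the Wtap-CKO list and 6 of 15 in the control list lay on a step. Over all motor peaks with a fold under 10, these were 10 of 81 in the Wtap-CKO list and 9 of 72 in the control list. Of the motor peaks, 49 of 120 in the Wtap-CKO list (40.8%, all genes 38.4%) and 32 of 113 in the control list (28.3%, all genes 35.2%) shared their exact fold and p with another peak of the list. A fold of 9.38, which is on a step, was listed for peaks of Kif20b, Kif21b and Kif26a in Wtap-CKO hearts. For folds of 10 or more, a step was met within 0.05. On a step were Kif5a (12.2, 183 peaks with the same fold and p) and Kif18b (23.4, 54 peaks) in Wtap-CKO hearts. Both Dync2i1 folds there were too (30.0, 21 peaks, and 29.1, 28 peaks). So were Kif24 (20.9, 57 peaks) and Kif6 (16.8, 88 peaks) in control hearts. A Myo19 peak (6.56, 16 peaks) in Wtap-CKO hearts and peaks of Myo5b (13.6, 155 peaks) and Myo5c (6.42, 25 peaks) in control hearts were on a step. The other Myo19 peak (7.03) and the other Myo5b peak (2.73) were not. Peaks with a counterpart were on a step as well, such as Kif14 (37.5, 14 peaks) in Wtap-CKO hearts. Kif1a, Kif5b, Dync2i2 and Kif22, each in 1 list only, had folds off the steps, though 7 peaks had the fold and p of Kif1a.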

How the data were processed

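RNA pooled from 8 Wtap-CKO and 7 control hearts gave 1 m6A IP and 1 input library per genotype, per the labels. The authors called peaks with exomePeak 2.16.0 at a q of 0.05, each IP against its own input, per the series' design text. The submitters' processing notes name fastp 0.19.11, BWA 0.7.12 and HOMER 4.9.1, and build GRCm39. The deposited lists hold a p-value per peak, the authors' log10 p and log10 q, read as a score because some are listed as minus infinity, and the authors' fold enrichment, a linear ratio of IP over input. No read counts are given, so depth is unknown.

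The comparison ran in Python 3.11.15 (pandas 2.3.3, numpy 2.4.6, scipy 1.17.1), with plots by matplotlib 3.10.9. A counterpart is a same-strand peak that shares 1 exonic base or more. Genes were joined by Ensembl ID, and 48 of the 51 member names matched a RefSeq table of GRCm38.p6, used for names only. In a check on 19795 control peaks and a copy of them, the overlap code found 100% of the peaks shifted slightly and 0% of those moved to another sequence. No p-value was computed, since each genotype had 1 pooled pair. Alternatives changed q, fold, overlap, strand, the number of peaks, the name rule and the limit for strong peaks.

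The members, gene lists and rule for named genes were chosen with earlier results of these data known. The roles, the distances of 200 and 1000 bases, the fold steps, the order of q in Myo18a pairs, the genes of the map of covered bases and the shares without Myo18a and Myo18b were chosen after the data were seen. The naming rule took members with a peak in 1 list only or a strong peak without a counterpart, the 10 with most peaks, the 10 with the largest folds among strong peaks of each list, kinesin-1, cytoplasmic dynein 1 and, per partner list, members in 1 list only and the 2 with most peaks. Other members are named with values for completeness. Transcript regions and the sequence motif of m6A were not analysed here. The result for 1 single gene is not reported here.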

Additional observations from a re-analysis of the deposited data

How the results depend on the processing

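No paired analysis was possible because each genotype had 1 pooled IP and input pair. Of 62 values under alternatives, 54 stayed within 1.5 times of the reported value (within the interval, for shares), and 8 moved. The alternatives counted motor genes only, so no share over all genes stands beside them. With an overlap of 50% of both peaks, 41 of 120 Wtap-CKO and 34 of 113 control motor peaks had no counterpart, against 28 and 23 as reported. Both counts stayed within 1.5 times, but as shares of the motor peaks they lay above the reported intervals. Motor genes with control peaks only numbered 3 of 44 at a q at or under 0.001, against 7 as called. Strong Wtap-CKO motor peaks without a counterpart, 2 as reported, numbered 1 with a fold of at least 4, 5 with an overlap of 50% of both peaks, 9 of 77 at q at or under 1e-05 and 0 of 36 at 1e-20. Strong control motor peaks without a counterpart, also 2, numbered 8 with a fold of at least 4, 8 with an overlap of 50% of both peaks and 1 of 43 at 1e-20. By its construction a minimum fold also removes counterparts with a smaller fold. Without Kif13a, the gene with most such peaks, 25 of 115 Wtap-CKO and 22 of 110 control motor peaks had no counterpart. The alternative without Myo18a and Myo18b was added after the data were seen. The motif search planned for the peaks was not run. Unknown depth limits every comparison of the lists, and counts as small as these rest on single peaks near the limits, such as that of Kif5b.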
